A study of Mus musculus with 3 samples.

Results

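The intervals described here are potential FAIRE peaks of mouse embryonic stem cells that lie beside an end of an autosome or beside a long stretch without any interval. They were chosen by position from the deposited list. An interval on chromosomes 1 to 19 was a member if 500 kb or less separated it from the outermost interval at either end of its chromosome, or from an interval-free stretch of at least 1 Mb, called a gap below. Intervals with a score of at least 0.2 or a width of at least 3000 bp were left out. The rule gave 4931 members of 348759 intervals in the list, and 1.43% of the 344785 autosomal intervals. Of these, 1928 were at 19 centromere-near starts, 1534 at 19 telomere-near ends and 1469 at the 14 edges of 7 gaps. Each start, end or edge with its 500 kb is called a zone, and no interval was in reach of more than 1 zone.

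The series comprised 3 samples of wild type embryonic stem cells of the strain background 129Sv-C57Bl/6. They were an input library of genomic DNA and 2 FAIRE samples. The cells of 1 FAIRE sample had received DMSO as the control for 16 h. Those of the other had received ICRF-193, which inhibits topoisomerase II catalysis, at 500 nM and for as long. Each FAIRE title joins replicates 1 and 2, so each group had 1 sample. The deposited list names no sample for an interval or a score. No value below compares the treatments, no test between groups was possible, and the sequencing depth of the list is unknown. The labelled cell type was not checked against marker genes, because intervals were not assigned to genes.

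FAIRE, short for formaldehyde-assisted isolation of regulatory elements, enriches DNA that formaldehyde links only weakly to protein, which includes active promoters and enhancers. Mouse autosomes have their centromere close to 1 end. Next to the centromere lie long arrays of satellite repeats packed as constitutive heterochromatin, most of which are missing from the assembled sequence. The other end of each chromosome lies far from the centromere, and next to its telomere lie repeats and, on many chromosomes, genes. Long runs of missing or duplicated sequence also occur inside assembled chromosomes, and reads of repeated sequence are hard to place. Whether such reads contributed to members was not tested. No sequence of a member is printed, since a genome of the build mm9 was not used here.

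Starts, ends and gap edges differed in how many members they held and in how unevenly the members were spread. The 9.5 Mb of starts held 203 members per Mb, the 9.5 Mb of ends 161 and the 7.0 Mb of gap edges 209.9. The autosomes outside the zones and gaps held 143 intervals per Mb under the same limits on score and width. A few zones set each of these values. The 3 fullest zones held 41.8% of the members at starts, 36.9% of those at ends and 67.7% of those at gap edges. The median zone held 85 members at starts, 62 at ends and 47 at gap edges. Over the whole autosomes, cut into 4820 windows of 500 kb, the median window held 40 intervals (interquartile range 13 to 101). Those windows differ from the zones in that they need not begin at an interval.

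At the centromere-near starts, the first interval of each of the 19 autosomes began between positions 3000001 and 3098286. Members per start ranged from 14 to 289, with quartiles at 27.5 and 116. The start of chromosome 14 was the fullest with 289 members, or 4.13 times the density of the rest of that chromosome. Chromosome 7 followed with 266 (3.72 times) and chromosome 11 with 250 (2.35 times). The starts of chromosomes 15 and 1 were the sparsest, with 14 and 16 members, 0.23 and 0.19 times the density of the rest. In the gene order of assembly GRCm38.p6, which differs in build and was used for names only, the outermost named protein-coding genes at the start of chromosome 11 are Sfi1 (a centrin-binding protein of centrosomes), Eif4enif1 (a partner of the cap-binding protein eIF4E) and Drg1 (a GTP-binding protein). Those at the sparse start of chromosome 1 are Xkr4, Rp1 (a photoreceptor protein) and Sox17 (an endoderm transcription factor). At the start of chromosome 15 they are Selenop (a selenium transport protein), Ccdc152 and Ghr (the growth hormone receptor). No member was assigned to any of these genes, and the genes were listed after the zones' values were seen. Whether a gene lies within the 500 kb of its zone was not checked, so some may lie beyond it.

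Starts were more often denser than the sequence next to them. In 14 of 19 starts the 500 kb held more intervals than the following 500 kb, against 52.6% of all autosomal windows of 500 kb that began at an interval. The median ratio to the following 500 kb was 1.70 (interquartile range 1.01 to 2.19 over 19 zones), from 0.44 on chromosome 1 to 5.8 on chromosome 2. With a reach of 250 kb in place of 500 kb the median ratio was 0.80, so the direction depended on the reach. Against the rest of the chromosome, 10 of 19 starts were denser, where 38% of windows were, and the median ratio was 1.22 (0.42 to 1.78). Ratios above 2 were found for 4 of 19 starts, on chromosomes 14, 7, 11 and 16, where 16.9% of windows had one. Zones are places in the same libraries and not replicates, so these shares are given without a test.

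The telomere-near ends held fewer members in all than the starts, and single ends differed widely. Members per end ranged from 12 to 221, with quartiles at 27.5 and 123.5. Chromosome 15 had the fullest end with 221 members, 3.64 times the density of the rest of the chromosome. It was followed by chromosome 6 with 194 (3.27 times) and chromosome 4 with 151 (1.95 times). Chromosome 12 had the sparsest end with 12 members (0.24 times) and chromosome 14 the next with 17 (0.24 times). By the gene order of GRCm38.p6, the outermost named genes at the end of chromosome 15 are Mucl2, Glycam1 (a ligand of L-selectin) and Ppp1r1a (an inhibitor of protein phosphatase 1). At the end of chromosome 6 they are Bicd1 (an adaptor of the dynein motor), Resf1 (a factor in silencing of retroelements) and Amn1. At the sparse end of chromosome 12 they are Tmem196, Macc1 and Itgb8 (an integrin subunit). As at the starts, these genes may lie beyond the 500 kb of the zone, which was not checked.

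In 12 of 19 ends the 500 kb held more intervals than the next 500 kb inward, against 53.4% of windows read in the same direction. The median ratio was 1.17 (0.57 to 2.56), with single ends from 0.15 to 28, and the pooled ratio over the 19 ends was 1.08. With a reach of 1 Mb the median ratio was 0.89, and in covered bases it was 1.58. Against the rest of the chromosome 9 of 19 ends were denser, where 38.1% of windows were, with a median ratio of 0.91 (0.44 to 1.56). The highest ratio to the adjoining sequence, 28 at the end of chromosome 18, came from 28 members beside 1 interval in the next 500 kb.

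The fuller end of a chromosome was the start in some chromosomes and the telomere-near end in others. The start held more members than the end on 10 chromosomes and fewer on 9. The ratio of start to end ranged from 0.063 on chromosome 15, with 14 members against 221, to 17 on chromosome 14, with 289 against 17. Across the 19 chromosomes, the log2 number of members at the start and at the end had a Pearson correlation of -0.02 and a Spearman correlation of -0.05. The log2 density of the rest of the chromosome had a Pearson correlation of 0.38 with the start (Spearman 0.42) and of 0.27 with the end (Spearman 0.30). These are descriptions over chromosomes measured in the same libraries. Chromosomes 3, 9 and 18 were sparse at both ends, with 22 and 27, 29 and 23, and 23 and 28 members. Chromosomes 4, 7, 11, 16 and 19 were denser than their own rest at both ends.

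**Figure D1:**
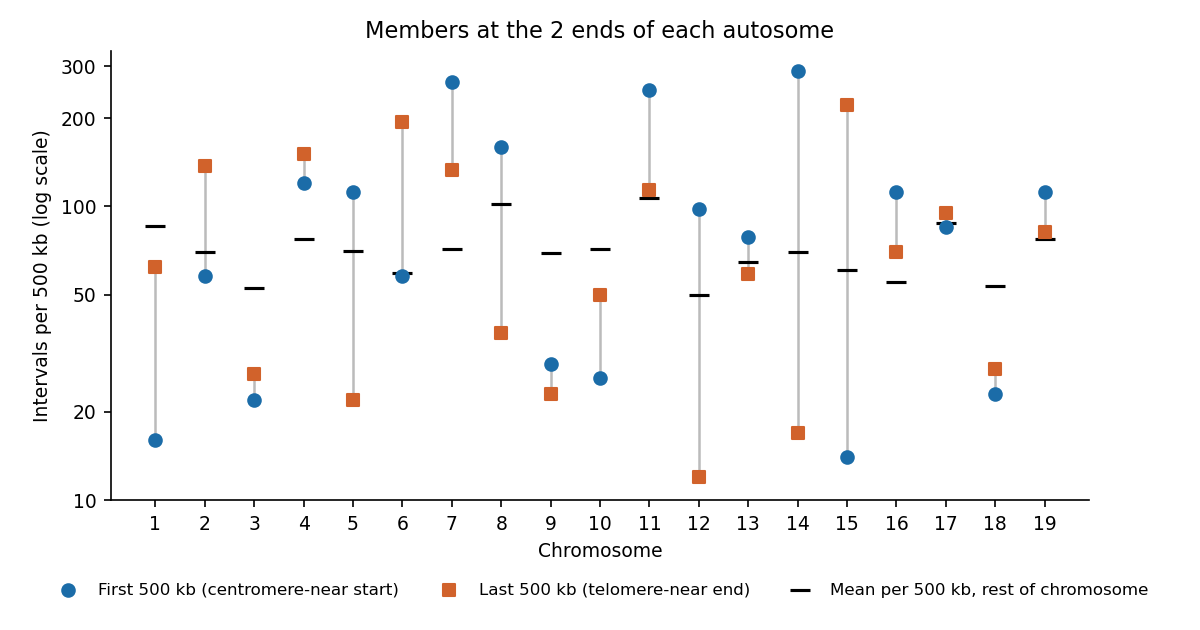
Members in the first 500 kb (circles) and the last 500 kb (squares) of each autosome, on a log axis, with the mean number per 500 kb in the rest of the chromosome as a dash. Chromosomes 14 (289 and 17 members) and 15 (14 and 221) have their fullest zone at opposite ends.

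The position of members inside the zones differed between starts and ends. At the starts, the first 100 kb held 12.3% of the members, or 125 per Mb, and the following 400 kb held 222.5 per Mb. In 14 of 19 starts the first 100 kb held under 20% of the members, the even share. Among all autosomal windows that began at an interval, 42% had so few. The bin from 50 to 100 kb was the lowest of the starts, with 93.7 intervals per Mb and no interval in 6 of 19 zones. At the ends the order of the pooled densities was the opposite. The last 100 kb held 26.1% of the members, or 211 per Mb, against 149 per Mb in the rest of the zone. Counted by zone, 6 of 19 ends had under 20% there, which is not far below the 42.7% of windows that did. The outermost 50 kb of the ends held 237 intervals per Mb with at least 1 in each of the 19 zones, and the level fell to 69.5 per Mb from 200 to 250 kb from the anchor. The highest bin of the ends was nevertheless farther in, from 400 to 450 kb, with 262 per Mb, where 74 of 249 intervals were on 1 chromosome. Each zone begins at an interval by construction, in both classes and in the windows.

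**Figure D2:**
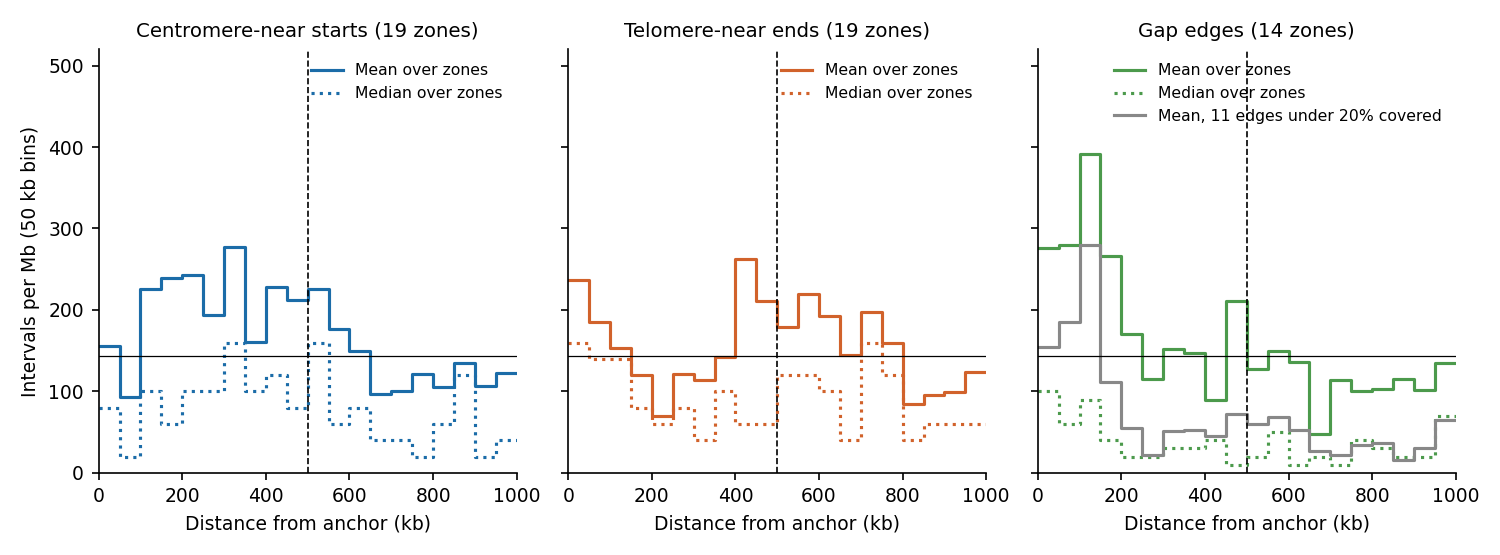
Intervals per Mb in 50 kb bins by distance from the anchor (the first or last interval, or the gap edge), as the mean (solid) and median (dotted) over zones. The horizontal line is the 143 per Mb of the autosomes outside the zones, and the dashed line marks the reach of 500 kb. Starts are low at 50 to 100 kb (93.7 per Mb), ends are high at 0 to 50 kb (237 per Mb), and the gap edges without the 3 filled ones (grey) drop below the line beyond 150 kb.

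Beyond the reach of the rule, the level at the starts fell to 134 intervals per Mb from 500 kb to 1 Mb. It then moved between 129 and 232 per Mb up to 5 Mb. At the ends it was 149.7 per Mb in the adjoining 500 kb and between 136 and 233 per Mb farther in. At the starts, 1 chromosome could hold much of such a value. In the bin from 4.5 to 5 Mb from the start, 628 of 1226 intervals were on 1 chromosome.

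Most members were narrow and scored just above the lowest score of the list, as in the rest of the list. The median width was 49 bp over all members (interquartile range 7 to 195.5 bp) and 41 bp on the autosomes outside the zones (7 to 161 bp). It was 45 bp at starts, 47 bp at ends and 60 bp at gap edges. The median score was 0.0137 at starts, 0.0137 at ends and 0.0139 at gap edges, against 0.0136 outside the zones. Intervals no wider than 10 bp made up 31.3% of members and 30.9% of intervals outside. The score and the width of members were closely related (Spearman's rho = 0.95 over 4931 members, 0.94 outside).

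The pooled share of high scores was above that of the autosomes at ends and gap edges and near it at starts. For gap edges this rested on 3 of the 14 edges, as given below. Intervals in the top 10% of the list by score are called high-score below, and among all autosomal intervals under the same limits 9.88% were high-score. At ends 195 of 1534 members were high-score, or 12.7% (exact 95% binomial interval 11.1 to 14.5%). At starts 180 of 1928 were, or 9.34% (8.07 to 10.7%). At gap edges 226 of 1469 were, or 15.4% (13.6 to 17.3%). These intervals cover counting error only and treat neighbouring members as independent, which they are not. Leaving out each end in turn gave 12.2 to 13.4%, so no single end set the value. With a reach of 1 Mb the classes were closer, at 11.1% for ends, 10.1% for starts and 12.7% for gap edges. The rule used score as an upper limit, so the shares are descriptions with no test.

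The high-score share also differed from the sequence next to the zones. In the adjoining 500 kb it was 9.28% for ends, 11.3% for starts and 7.85% for gap edges. Among zones with at least 20 intervals on both sides, the share was above the adjoining one in 8 of 12 ends, 5 of 12 starts and 4 of 5 gap edges. The matching share among all autosomal windows was not computed, so these counts have no background. The 5 gap edges included the 3 edges described below in which intervals covered at least 20% of the bases. At the other 11 edges 8.13% of members were high-score. Per Mb of sequence there were 20.5 high-score members at ends, 18.9 at starts and 32.3 at gap edges, against 14.1 outside the zones. The value of gap edges rested on those 3 edges, which held 180 of the 226 high-score members, against 46 at the other 11. All members together numbered 161 per Mb at ends, against 143 intervals per Mb outside the zones.

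Zones of the same class varied widely in this share. Among the 17 ends with at least 20 members the lowest share was 5.08%, the median 13.5% and the highest 39.1%. The highest was at the end of chromosome 9, with 9 high-score members of 23 and a median width of 195 bp. The end of chromosome 19 had 18 high-score members of 82 (21.9%). Among 17 starts the lowest share was 2.68% on chromosome 19, the median 9.0% and the highest 24.1% on chromosome 9, with 7 of 29. Chromosome 9 thus had the highest share of both classes, on small numbers of members. Over all 19 chromosomes, including those with a zone of fewer than 20 members, the share was higher at the end on 12 and at the start on 7. On chromosome 13, counted among the 12, the shares were almost equal, at 5.08% and 5.06%.

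**Figure D3:**
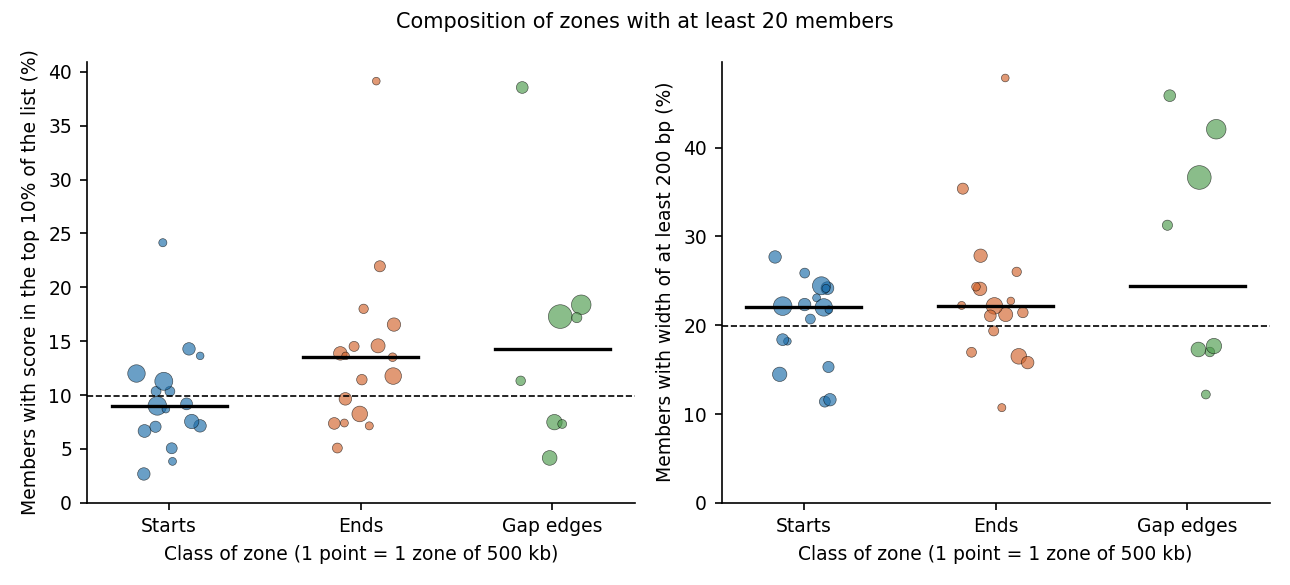
Share of members with a score in the top 10% of the list (left) and with a width of at least 200 bp (right) in each zone with at least 20 members. Point area grows with the number of members, thick lines are medians over zones, and dashed lines are the shares among all autosomal intervals under the same limits (9.88% and 19.9%). The end of chromosome 9 is at 39.1% on the left, and the median of ends is 13.5% against 9.0% for starts.

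Members at least 200 bp wide made up 22.2% of those at ends, 20.9% at starts and 31.7% at gap edges, where 19.9% of all autosomal intervals under the same limits were so wide. The value of gap edges came from the 3 edges described below in which intervals covered at least 20% of the bases. There 39.5% of members were so wide, against 19.1% at the other 11 edges. At a given width, the scores of the classes were close among narrow members and farther apart among wide ones. From 51 to 200 bp the median scores of the 3 classes lay between 0.0147 and 0.0151, beside 0.0149 outside the zones. From 501 to 1000 bp the median score was 0.0366 at ends (60 members), 0.0284 at starts (77) and 0.0320 outside the zones. From 1001 to 2999 bp it was 0.0685 at ends, on 8 members, and 0.0590 at starts, on 24, against 0.0405 outside.

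**Figure D4:**
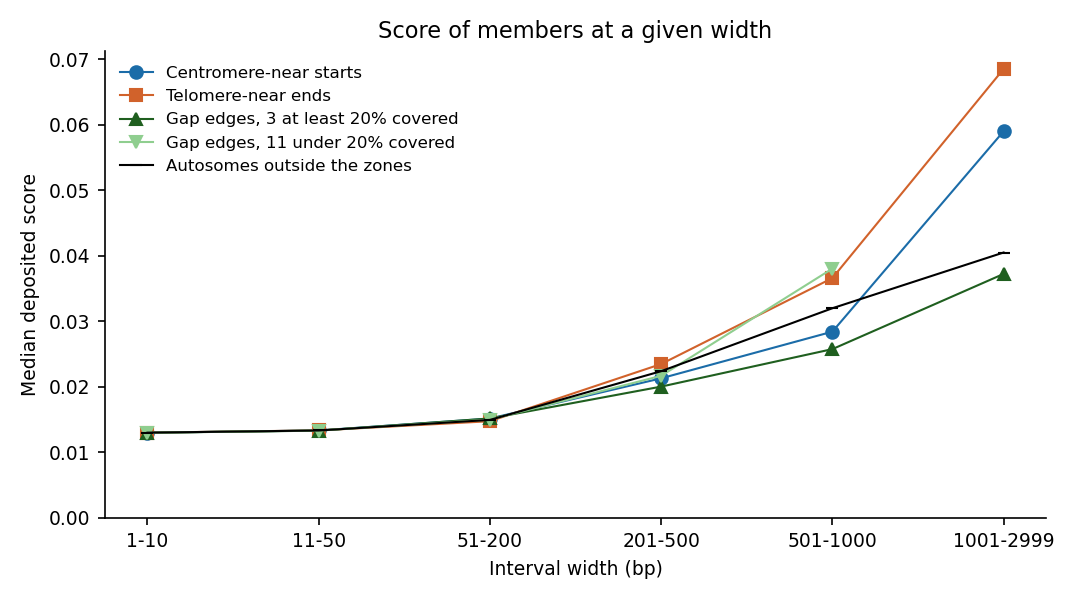
Median deposited score of members in 6 bins of width, for each class and for the autosomes outside the zones; points with fewer than 8 members are not drawn. The classes overlap up to 200 bp, and in the widest bin ends (0.0685) and starts (0.0590) lie above the autosomes outside the zones (0.0405) and the 3 filled gap edges (0.0372) below.

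The strongest members at the ends lay within 100 kb of the last interval. The highest score of any member, 0.192, was at chr1:197105217-197105745, which was 529 bp wide, 85.1 kb from the last interval, and 14.1 times the median score of the list. The next were chr19:61275252-61275966 (0.176, 66.0 kb from the last interval) and chr2:181653146-181654136 (0.169, 93.9 kb). The widest members at ends were 2 on chromosome 9, chr9:123832318-123834579 (2262 bp) and chr9:123842824-123844890 (2067 bp), followed by chr2:181664700-181666486 (1787 bp). The last of these lay 81.5 kb from its anchor, near the high-scoring member of the same chromosome.

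At the starts the highest scores were 0.186 at chr16:3116033-3117275, 0.167 at chr11:3003682-3004292 and 0.157 at chr4:3016440-3018692. The last 2 lay 3.53 kb and 9.2 kb from the first interval of their chromosome. The interval on chromosome 4 was also the second widest start member, at 2253 bp. The widest was chr14:3127316-3130039 with 2724 bp, but its score was only 0.0513. The third widest was chr11:3001085-3003202 with 2118 bp and a score of 0.0742, which lay 0.93 kb from the first interval and next to the high-scoring member of that chromosome. In the first 50 kb of the starts 18.2% of the 148 members were high-score, whereas from 50 to 100 kb 3.37% of 89 were. A single chromosome held 52 of the 148 and 53 of the 89.

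Gap edges differed from each other more than a pooled value shows. The 3 edges in which at least 20% of the bases were covered by intervals of any score or width were both edges of the gap of chromosome 1 and the left edge of the first gap of chromosome 8. Among all windows that began at an interval, 0.19% were so covered. This split was made after the values were seen. The 3 filled edges held 903 of the 1469 gap-edge members, and of these 19.9% were high-score with a median width of 98 bp. The other 11 edges held 566 members, of which 8.13% were high-score, below the background of 9.88%, with a median width of 35 bp. Their median density was 0.27 times that of the rest of the chromosome. The 15.4% given for all gap edges thus rested on the 3 filled ones.

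The gap of chromosome 1, at 85343702 to 87343769 (2.00 Mb), had 486 members on its left and 321 on its right. That was 5.68 and 3.75 times the density of the rest of the chromosome. Another 20 intervals on the left and 8 on the right were left out by the limits. Intervals covered 86.2% of the 100 kb on the left of the gap and between 54.0 and 58.8% of each of the next 3 stretches of 100 kb, then 21.4% of the last. On the right they covered 54.1% of the first 100 kb and 78.8% of the second, and 9.66% of the third. Both sides of this gap thus began with dense cover. From 500 kb to 1 Mb from the gap, intervals covered 2.96% of the bases on the left and 7.88% on the right. No gene was assigned to these edges.

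The first gap of chromosome 8, at 20038081 to 22043656 (2.01 Mb), was filled on 1 side only. The left edge had 96 members and 26 intervals left out, and intervals covered 98.1% of the first 100 kb, 75.4, 55.6 and 57.3% of the next 3, and 0.078% of the last. Of its 96 members 38.5% were high-score and the median width was 177 bp, the widest median of the gap edges with at least 20 members. The right edge had 41 members, of which 7.32% were high-score, and 0.97% of its bases were covered. Across the 3 filled edges, members were wide without scoring high for their width. From 501 to 1000 bp their median score was 0.0257, against 0.0320 on the autosomes outside the zones, and from 1001 to 2999 bp it was 0.0372 against 0.0405.

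The longest gap, at 39350998 to 46435641 of chromosome 7 (7.08 Mb), had similar numbers of members on both sides, 187 and 168. These were 2.62 and 2.35 times the density of the rest of the chromosome, but few were high-score, at 7.49 and 4.17%. Intervals covered 3.39 and 2.88% of the bases there. These 2 edges were thus dense in members but not filled. Beyond the zones the sides differed, with 66 intervals in the next 500 kb on the left and 8 on the right.

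The edges of the other 4 gaps held from 3 to 64 members, where the median autosomal window of 500 kb held 40 intervals. The gap at 22013280 to 23130650 of chromosome 7 (1.12 Mb) had 3 members on each side, 0.04 times the density of the rest. The gap of chromosome 5, at 94569057 to 96029169 (1.46 Mb), had 8 and 19 members. The gap of chromosome 4, at 91124867 to 93001308 (1.88 Mb), had 53 on the left and 6 on the right. The second gap of chromosome 8, at 56209174 to 57957801 (1.75 Mb), had 14 and 64. No edge of these 4 gaps was denser than the rest of its chromosome, where 38% of windows were. On the left of the last, 1 interval left out by the limits covered 10.3 kb.

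The median ratio of gap edges lay above or below 1 depending on the comparison, but the counts of edges were near the shares among windows. In 8 of 14 edges the 500 kb held more intervals than the next 500 kb. The share among windows was 52.6 or 53.4%, by the direction read. The median ratio to the adjoining 500 kb was 1.52 over the 13 edges with an interval there, from 0.27 to 21. The median ratio to the rest of the chromosome was 0.51, with 7 of 14 edges under 0.5 times that density, where 43% of windows were.

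**Figure D5:**
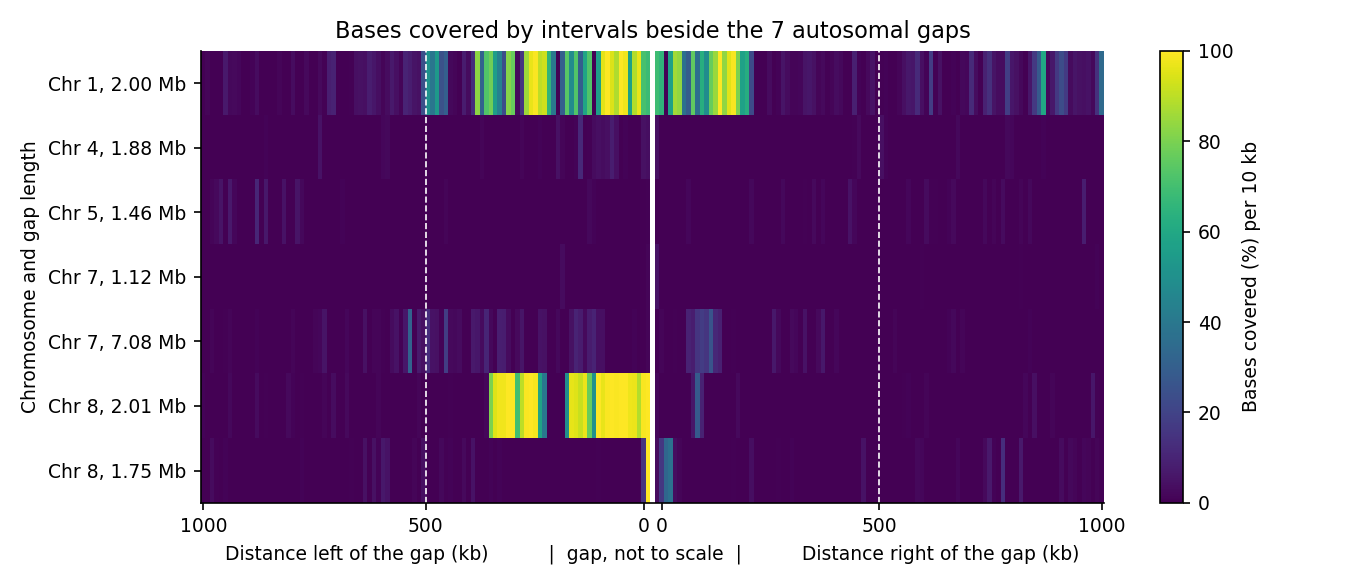
Share of bases covered by intervals of any score or width in 10 kb bins, up to 1000 kb on each side of the 7 autosomal gaps (the white column; gaps are not drawn to scale). Dashed lines mark the reach of 500 kb. Both sides of the gap of chromosome 1 and the left side of the first gap of chromosome 8 are filled, with 86.2, 54.1 and 98.1% of the nearest 100 kb covered.

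Members were more tightly packed at gap edges than elsewhere, and to a smaller extent at starts. The median distance from the end of a member to the start of the next was 109 bp at gap edges, 230 bp at starts and 336 bp at ends, and also 336 bp on the autosomes outside the zones. Without the fullest zone of each class the median was 134 bp at gap edges, 290 bp at starts and 335 bp at ends. With all zones counted, distances of at most 20 bp were about as common in each class and outside, at 36.4, 35.8, 34.4 and 34.0%. The difference lay in the long distances. Those above 10 kb made up 6.46% at gap edges, 10.9% at starts, 13.7% at ends and 13.9% outside. Members joined within 500 bp formed 417 regions at gap edges with 3.52 members each, 789 at starts with 2.44 and 721 at ends with 2.13, against 2.17 outside. Regions of at least 10 members held 34.1% of gap-edge members, 13.9% of start members and 5.15% of end members, against 7.47% of intervals outside. At the 11 gap edges that were not filled the median distance was 276 bp and 8.3% of members were in such regions.

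The limits of the rule removed 71 intervals in reach of an anchor, 12 at starts, 4 at ends and 55 at gap edges. These few intervals held 40.2% of the bases covered by intervals in the zones. All but 1 of the 55 at gap edges lay at the 3 filled edges. At the ends the 4 left out were all removed by score, with a highest score of 2.02 and no width above 794 bp. At the start of chromosome 11, where 5 were left out, the share of bases covered by intervals was 21.3% in all and 6.27% by members alone. Over all autosomes 238 intervals (0.069%) were at or above a limit, and 29.8% of them lay in the zones.

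Values on both sides of the limits were near each other. Just inside the score limit were 0.192, 0.186 and 0.176, and just outside 0.211, 0.223 and 0.226. Just inside the width limit were 2976, 2897 and 2881 bp, 3 intervals at the filled edges of chromosomes 8 and 1, and just outside were 3018, 3227 and 3233 bp, each at an edge of the chromosome 1 gap. Just inside the reach were intervals 499.2, 499.1 and 499.1 kb from their anchor, at the starts of chromosomes 19 and 5. Just outside were intervals at 500.1, 500.1 and 500.4 kb, at the end of chromosome 15 and at the left edge of the chromosome 1 gap.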

How the data were processed

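The data were 1 list of intervals deposited by the authors, with 5 columns without a header, which give the position, a name and a score. Reads were aligned to mm9 with Bowtie (no version), per the submitters' processing notes. The file's name gives F-Seq, which turns aligned reads into a smoothed density and reports stretches over a threshold. F-Seq settings, read filters, the role of the input and the samples behind the list: not given in the sources used here. Each score is the authors' deposited value, of unstated scale, and was used only to describe and filter intervals. Starts in the list count from 0, and printed coordinates count from 1.

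The members and comparisons were chosen with earlier results of these data known. Distances ran from the nearest base of an interval to its anchor. Outermost intervals stood in for chromosome ends, because chromosome lengths were not used. Densities outside the zones leave out zones and gaps. Named intervals were the 3 highest-scoring and 3 widest of each class, the fullest and sparsest zones, each gap, and the 3 values on both sides of each limit. Planned sequence and gene annotation were not run, because a mm9 genome and annotation were not used here. Python 3.11.15, pandas 2.3.3, numpy 2.4.6, scipy 1.17.1 and matplotlib 3.10.9 were used, and the procedures were tested on simulated intervals. Alternatives were another reach, other limits on score, width and gap length, joining, a minimum width, other comparison sequence and leaving out zones.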

Additional observations from a re-analysis of the deposited data

How the results depend on the processing

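No paired analysis was possible because each group had 1 sample and the list names no sample. Of 117 alternative values for 21 results, 92 stayed within 1.5 times of the reported value, or within its binomial interval for a share, 19 moved and 6 fell on the other side of 1. Median scores could hardly leave the band of 1.5 times, because most intervals scored near the lowest score of 0.0129. Counts of members under changed limits could hardly leave it either, because the limits removed few intervals. The 92 is therefore no measure of how stable the results were. The 6 were all density ratios: 0.80 for starts with a reach of 250 kb, for ends 0.89 with a reach of 1 Mb and 0.91 against the rest of the chromosome, and for gap edges 0.74 with a reach of 1 Mb, 0.89 against the sequence 1 to 3 Mb away and 0.51 against the rest of the chromosome. That of gap edges was 2.75 with gaps of at least 2 Mb and 2.41 in covered bases. Only 38% of windows were denser than the rest of their chromosome, so a median below 1 in that comparison does not show sparse zones. With gaps of at least 500 kb, of which there were 108, gap edges had 4907 members. The high-score share was 11.1% for ends and 12.7% for gap edges with a reach of 1 Mb, and for gap edges 18.4% without limits and 13.2% with limits of 0.1 and 2000 bp. After joining within 500 bp it was 19.01% for starts, 24.8% for ends and 27.6% for gap edges, beside 19.6% of all autosomal regions. With a minimum width of 20 bp it was 15.8, 20.6 and 25.3%, beside 16.5%. Joining within 20 bp removes the short distances by construction and gave median distances of 983 bp at starts, 1799.5 bp at ends and 373 bp at gap edges. Chosen after seeing the data, leaving out the 3 filled gap edges gave a median width of 35 bp, a high-score share of 8.13% and a median distance of 276 bp. Depth is unknown, so a missing interval shows little, and the cause of these shifts was not tested.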

Other observations

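Chromosomes X and Y were outside the rule, which took autosomes only. By the same reach and limits, the 16 edges of the 8 gaps of chromosome X held 132 intervals, from 1 to 22 per edge with a median of 6, and none of them reached a limit on score or width. None of these edges was filled in the way of the 3 autosomal ones. The density of the rest of chromosome X was not computed, so whether its gap edges were sparse for that chromosome was not tested. Of the 348759 intervals in the list 344785 were autosomal, so few lay on other chromosomes at all. The start of chromosome X held 2 intervals and its end 40, of which 22.5% were high-score, and another 5 at that end were left out by the limits. The last 500 kb listed on chromosome Y held 52 intervals, of which 42.3% were high-score, with 5 left out.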
